A study of Mus musculus with 24 samples.

Results

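The genes described here are 10 genes of the cytoplasmic machinery that assembles spliceosomal small nuclear ribonucleoproteins (snRNPs), measured in the frontal cortex of mice. They comprise the methylosome genes Clns1a, Prmt5 and Wdr77, and the SMN complex genes Smn1, Gemin2, Gemin4, Gemin5, Gemin6, Gemin7 and Gemin8. Clns1a was the starting point because it lay lower in mice with a human TDP-43 transgene (edgeR adjusted p = 0.0468, the last of 20 genes called of 18239 tested), and the other 9 were added for their function. The 10 genes are among 52352 genes with deposited values, and all 10 were present in every library and passed the filter on low counts. Because the transgene comparison chose Clns1a, its values there are given as a description and nothing is read from a test. Just inside the threshold of 0.05, the gene before Clns1a was Gm49593 (edgeR adjusted p = 0.0442), and the first gene outside it was Hspa4 (log2 change −0.13, edgeR adjusted p = 0.0599).

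A spliceosomal snRNP is built from a small nuclear RNA and a ring of Sm proteins, and its assembly runs mostly in the cytoplasm. Clns1a encodes pICln, a chaperone that holds Sm proteins apart from RNA and brings them to the methylosome, where the arginine methyltransferase encoded by Prmt5, with its partner encoded by Wdr77, methylates Sm tails. The SMN complex then takes over the Sm proteins and closes the ring on the RNA. Loss of the SMN protein causes spinal muscular atrophy, a disease of motor neurons, and TDP-43 is an RNA-binding protein that prefers UG-rich sequence and accumulates in frontotemporal dementia and amyotrophic lateral sclerosis.

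Poly-A selected RNA was sequenced from 24 mice, each library being a separate mouse. All mice came from a cross between Grn+/- mice and hTDP transgenic mice, and formed 4 groups of 6, with 3 females and 3 males in each. Mice with both Grn copies were Grn+/+:hTDP- or, with the transgene, Grn+/+:hTDP+, and mice with a single functional copy were Grn+/-:hTDP- or, with the transgene, Grn+/-:hTDP+. Grn encodes the secreted and lysosomal protein progranulin, and hTDP+ mice carry a transgene for human TDP-43 whose promoter is not given in the sources used here. In Grn+/+:hTDP- mice the ages were 9.44 (3 mice), 10.07 (2 mice) and 10.79 months (1 mouse), and in Grn+/+:hTDP+ mice 9.44 (3 mice) and 10.07 months (3 mice). Grn+/-:hTDP- mice were spread over 8.19 (2 mice), 9.14, 9.44, 10.56 and 10.79 months (1 mouse each), and Grn+/-:hTDP+ mice were 9.44 (2 mice) or 10.07 months old (4 mice). By its title, the series asks whether progranulin insufficiency and TDP-43 overexpression modify one another, a question the interaction term below addresses.

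Libraries held 61445842 to 100859149 estimated reads, and the 10 genes held from 182 reads (the lowest library for Gemin6) to 5708 reads (the highest for Wdr77). Human TARDBP lay at 28.9 to 38.1 TPM (transcript abundance corrected for length and scaled to a fixed total per library) in hTDP+ libraries and at 0 to 0.0143 TPM in the others, and Grn at 13.8 to 32.9 CPM (counts scaled to library size) in Grn+/- against 34.7 to 60.5 CPM in Grn+/+ libraries. The library of Grn+/+:hTDP+ replicate 2 stood apart, with 17669 genes above 0 against 22269 to 23272 in the others. Several results of the 10 genes are given with and without it, and single pathway genes only with it. Excitatory neuron markers summed to 2483 to 3113 TPM over the 24 libraries. In whole tissue, fewer cells of a type and less RNA per cell cannot be told apart.

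All 10 genes have a place in the annotation of the mouse genome build GRCm38. Clns1a lies at chr7:97696634-97720796 on the plus strand. Nearly all of its reads, 98.7% ± 0.355 (SD, n = 24), were assigned to 1 coding transcript of 1504 bases. Because TDP-43 prefers UG-rich RNA, the main transcript of each gene was searched, on its own strand, for runs of TGTGTG or longer. That of Clns1a holds 3 of them, each shown in 30 bases with the run in capitals.
Clns1a coding sequence, chr7:97712636-97712665: tgttcacagcaaTGTGTGagtgccaggcct
Clns1a 3′ UTR, first run, chr7:97718459-97718488: tcctgcctttgcTGTGTGcgtctgtcagct
Clns1a 3′ UTR, second run, chr7:97718675-97718704: tctcgcaatactTGTGTGctagcttctgtt
Such a run is common. It occurred in 69.9% of the main transcripts of 18238 tested genes, and in 51.9% of the 2182 whose length was within 0.25 of it on the log2 scale. Among the other genes the main transcripts of Wdr77 held 4 runs, Gemin6 held 3, and Prmt5, Gemin4 and Gemin5 held 2 each. The main transcripts of Smn1, Gemin2, Gemin7 and Gemin8 held 0. Main transcripts of like length held a median of 1 run for Clns1a, Prmt5, Gemin2 and Gemin8, and 2 for Wdr77 and Gemin4. This median was 3 for Gemin5 and 0 for Gemin6, Smn1 and Gemin7. A run is a match of letters, not a binding site.

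Per length, Clns1a was the most abundant of the 10 mRNAs. On the TPM scale, which corrects for transcript length and allows genes to be compared, its level was 78.6 ± 4.93 TPM (SD over all 24 libraries). Gemin7, a small subunit that pairs with Gemin6, followed at 58.2 ± 3.63 TPM, then Prmt5 at 40.5 ± 2.05, Wdr77 at 31.8 ± 3.02 and Smn1 at 20.1 ± 1.68 TPM. The remaining SMN complex genes lay between 10.2 ± 1.11 TPM for Gemin8 and 5.15 ± 0.508 TPM for Gemin2, with Gemin5 at 9.23 ± 0.671, Gemin4 at 7.79 ± 0.834 and Gemin6 at 7.09 ± 0.861 TPM. The first places did not overlap: Clns1a was above Gemin7, and Gemin7 above Prmt5, in every library, and Wdr77, Smn1 and Gemin8 kept their order in every library too. The ranges of the other neighbours overlapped, with Prmt5 above Wdr77 in 23 of 24 libraries, Gemin8 above Gemin5 in 18, Gemin5 above Gemin4 in 22, Gemin4 above Gemin6 in 18 and Gemin6 above Gemin2 in 23. The proteins of Gemin6 and Gemin7 bind each other, and Gemin7 mRNA was above Gemin6 mRNA throughout (51.3 to 65.5 against 5.13 to 8.50 TPM).

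Clns1a lay lower in both transgenic groups, by about the same amount on each Grn background. In Grn+/+ mice without the transgene its lowest, median and highest libraries were 51.6, 54.0 and 56.8 CPM, and with the transgene 46.6, 49.4 and 51.2 CPM. In Grn+/- mice they were 51.7, 53.5 and 56.2 CPM without the transgene and 46.8, 50.2 and 51.8 CPM with it. The Grn+/+ groups did not overlap, as was so for 0.307% of the genes tested in that direction, while in Grn+/- mice the highest transgenic library, replicate 6 at 51.8 CPM, lay just above the lowest nontransgenic library. Over both backgrounds, 11 of 12 hTDP+ libraries lay below the lowest hTDP- library in CPM. The share of genes with such a partial separation was not counted. Full separation in CPM, a stricter pattern that Clns1a did not show, was found for 0.0274% of genes. On the TPM scale all 12 hTDP+ libraries (68.8 to 78.4 TPM) lay below all 12 hTDP- libraries (78.7 to 87.7 TPM), a pattern shown by 0.0329% of the genes tested (0.482% within Grn+/+ and 0.126% within Grn+/- mice alone). Group means were 83.1 ± 3.97 and 74.9 ± 3.19 TPM in Grn+/+ mice that lacked or carried the transgene, and 81.6 ± 2.04 and 74.7 ± 3.40 TPM in Grn+/- mice (SD, n = 6 each).

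**Figure D1:**
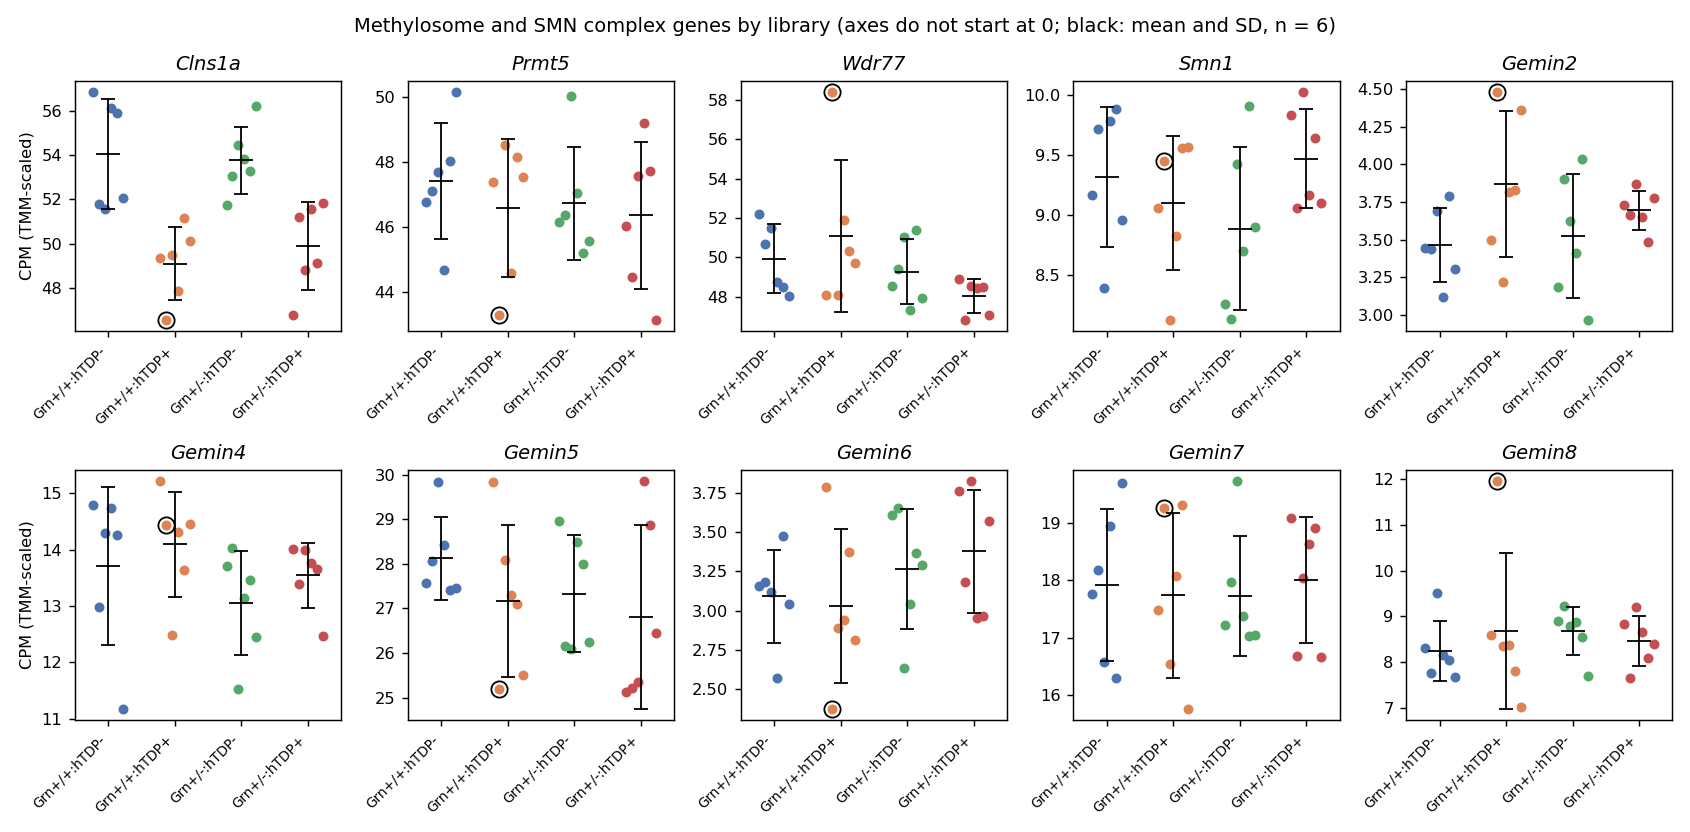
CPM of the 10 genes (vertical axes, which do not start at 0) in each library of the 4 groups (6 points each), with the group mean and SD in black and the library of Grn+/+:hTDP+ replicate 2 circled. Clns1a lay at 46.6 to 51.8 CPM with the transgene and 51.6 to 56.8 CPM without it, ranges that meet through the Grn+/- groups, and in the other 9 genes, Wdr77 included, hTDP+ and hTDP- libraries overlapped on each Grn background.

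Averaged over both Grn genotypes, the fitted log2 change of Clns1a with the transgene was −0.12 (SE 0.0248, 95% interval −0.17 to −0.07), a level 0.918 times that of hTDP- mice. It was −0.14 (SE 0.0351) in Grn+/+ and −0.11 (SE 0.0351) in Grn+/- mice. Clns1a was the only one of the 10 genes called for the average (1 of 10, against 0.11% of all genes called and 0.0768% called lower), and this count is the one that chose it. With either Grn genotype taken alone, edgeR called 0 of the 10 genes. At an unadjusted edgeR p under 0.05 there was 1 of the 10 on each background, Clns1a. Over all 18239 genes there were 1428 in Grn+/+ and 435 in Grn+/- mice. Each background is a part of the comparison that chose Clns1a, so nothing is read from these p-values. DESeq2 and limma voom called 0 of the 10 there as well, and edgeR called 0.0329% of all genes in Grn+/+ and 0.0219% in Grn+/- mice (0.0164% called lower on each).

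Split by sex and, where ages could be matched, by age, the means of Clns1a were lower with the transgene. These are the same libraries that chose Clns1a, so the split is a description and gives no further support. The groups of Grn+/- females overlapped, with 51.7 CPM in the lowest hTDP- library and 51.8 CPM in the highest hTDP+ library. Females measured 54.5 ± 2.58 and 48.7 ± 1.89 CPM in Grn+/+ mice that lacked or carried the transgene, and 53.7 ± 2.30 and 50.8 ± 1.48 CPM in Grn+/- mice (SD, n = 3 each). Males measured 53.6 ± 2.83 and 49.5 ± 1.67 CPM, and 53.8 ± 0.588 and 48.9 ± 2.21 CPM. At 9.44 months, Grn+/+ mice ranged from 52.1 to 56.1 CPM without the transgene and from 47.8 to 51.2 CPM with it (3 mice each), and at 10.07 months from 51.6 to 51.8 CPM (2 mice) and from 46.6 to 49.5 CPM (3 mice). In Grn+/- mice only 9.44 months held both genotypes, with 54.5 CPM in the single hTDP- mouse and 49.1 and 51.8 CPM in the pair with the transgene. The call did not hold under 5 of 10 other settings or in 19 of 24 fits that left out 1 library. Over the 10 settings the log2 change lay between −0.14 and −0.10. In the 24 fits it lay between −0.13 and −0.11, with the edgeR adjusted p between 0.0334 and 0.115. Without Grn+/+:hTDP+ replicate 2 it stood at −0.12 (edgeR adjusted p = 0.0546). The 5 libraries whose omission kept the call were Grn+/+:hTDP- replicate 3, Grn+/+:hTDP+ replicate 5, Grn+/-:hTDP- replicate 1 and Grn+/-:hTDP+ replicates 2 and 6.

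**Figure D2:**
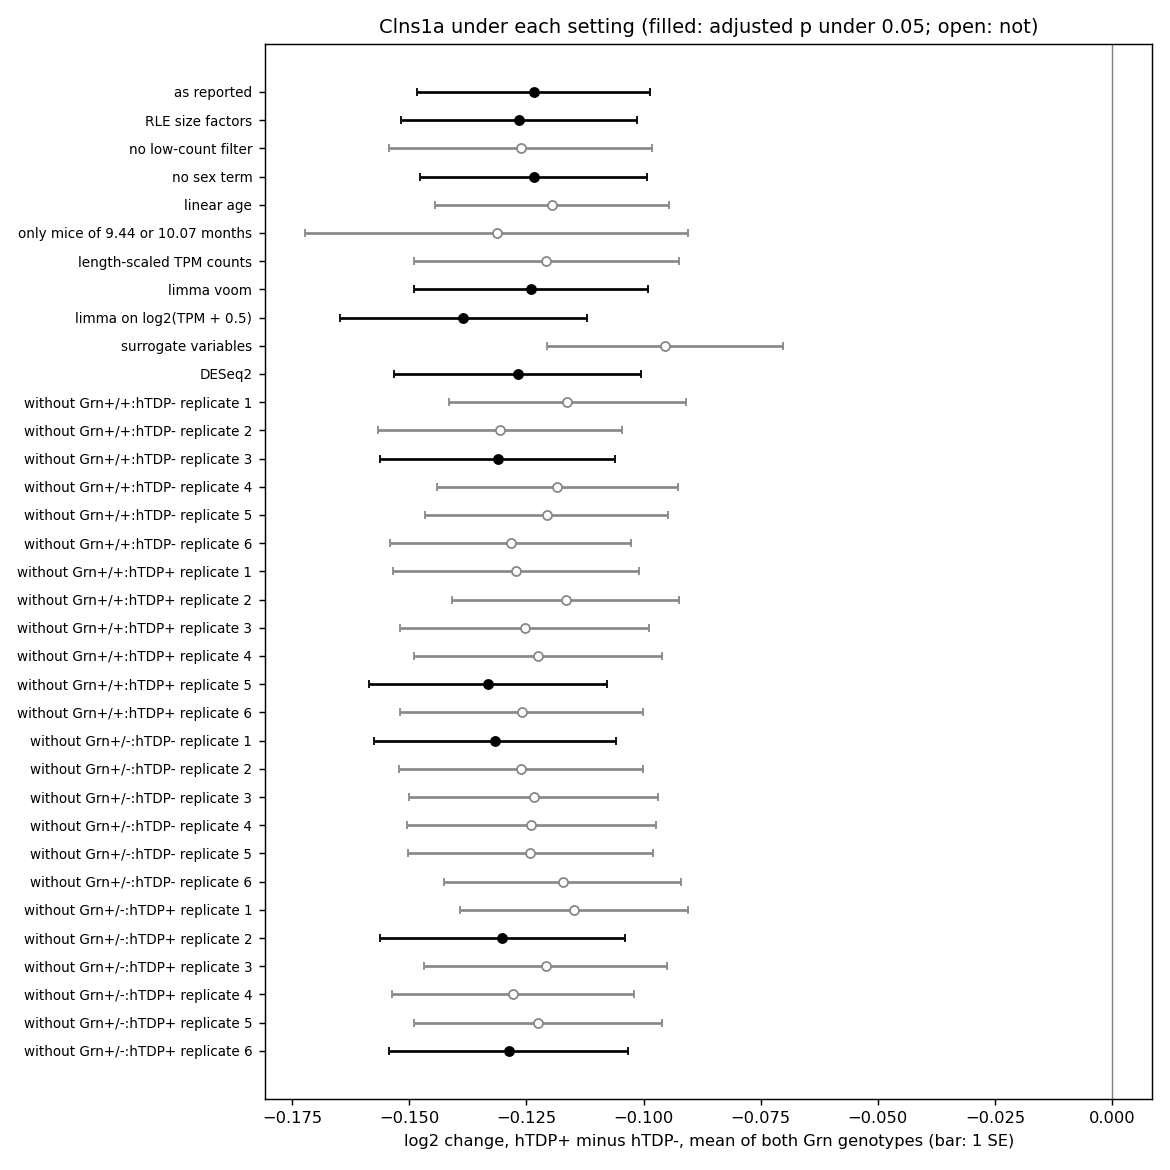
Log2 change of Clns1a (hTDP+ minus hTDP-, mean of both Grn genotypes; horizontal axis, bars 1 SE) as reported, under 10 other settings and without each of the 24 libraries in turn; filled points have an adjusted p under 0.05. Every estimate lay below 0, from −0.14 with limma on log2(TPM + 0.5) to −0.10 with surrogate variables.

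Levels of cell type markers are given beside this result. The summed level of 5 oligodendrocyte markers ranged from 794 to 2049 TPM in Grn+/+:hTDP- and from 1337 to 2817 TPM in Grn+/+:hTDP+ mice (medians 1266 and 1869), and from 862 to 3852 TPM in Grn+/-:hTDP- and from 751 to 2138 TPM in Grn+/-:hTDP+ mice (medians 1178 and 1486). All 5 had an average log2 change above 0 with the transgene, as did all 4 markers of blood cells, all 4 of endothelium and all 5 of mural and meningeal cells. The summed level of 5 excitatory neuron markers ranged from 2846 to 3065 and from 2483 to 2980 TPM in the Grn+/+ groups without and with it, and from 2780 to 3113 and from 2614 to 3034 TPM in the Grn+/- groups, with 0 of 5 above 0. Blood cell markers summed to medians of 74.7 and 81.0 TPM in the Grn+/+ groups without and with it (38.4 to 123 and 69.0 to 193 TPM), and of 67.3 and 231 TPM in the Grn+/- groups (40.3 to 558 and 50.4 to 295 TPM). For endothelium the medians were 100.1 and 106 TPM (90.8 to 115 and 91.8 to 127 TPM) in Grn+/+ and 109 and 112 TPM (91.5 to 112 and 97.0 to 122 TPM) in Grn+/- mice, and for mural and meningeal cells 40.7 and 47.5 TPM (35.5 to 46.8 and 37.8 to 54.3 TPM) in Grn+/+ and 46.0 and 46.0 TPM (38.3 to 56.0 and 42.4 to 63.6 TPM) in Grn+/- mice. Elsewhere, 4 of 5 markers of astrocytes, 3 of 4 of oligodendrocyte precursors and 3 of 4 of striatal neurons were above 0. For choroid plexus and ependyma it was 2 of 3 tested, and for the olfactory bulb 1 of 2. Microglia and inhibitory neurons each had 1 of 5 markers above 0. Over all genes tested, 51.6% were above 0 with the transgene. The part of these markers in the level of Clns1a was not tested.

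The enzyme and the partner that act with pICln showed values that overlapped between groups. Prmt5 (chr14:54507187-54517525), the symmetric arginine methyltransferase, measured 47.4 ± 1.78 and 46.6 ± 2.12 CPM in Grn+/+ mice that lacked or carried the transgene, and 46.7 ± 1.74 and 46.3 ± 2.25 CPM in Grn+/- mice (SD, n = 6 each). The average log2 change was −0.02 (95% interval −0.07 to 0.04). Wdr77 (chr3:105959369-105970037), the WD-repeat partner also known as MEP50, had an average log2 change of −0.00 (SE 0.0286). Its lowest, median and highest libraries were 48.0, 49.7 and 52.2 CPM in Grn+/+:hTDP-, 48.1, 50.0 and 58.4 CPM in Grn+/+:hTDP+, 47.3, 49.0 and 51.4 CPM in Grn+/-:hTDP-, and 46.8, 48.5 and 48.9 CPM in Grn+/-:hTDP+ mice. The highest of these, 58.4 CPM, is the library that stands apart. Without it the Grn+/+:hTDP+ group reached 51.9 CPM at most, and the average log2 change of Wdr77 was −0.03 (SE 0.0215).

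On the TPM scale the groups of Wdr77 lay differently. The 6 Grn+/-:hTDP+ libraries (25.8 to 29.6 TPM) lay below all 6 Grn+/-:hTDP- libraries (31.3 to 34.1 TPM), although the same groups overlapped in CPM. In TPM 0.126% of all genes separated in this way. TPM depends on which transcript the reads are assigned to, and 1 transcript of Wdr77 differed in this. It is 1095 bases long and annotated as a retained intron, and held 4.76% ± 1.01, 4.41% ± 2.62 and 4.32% ± 1.04 of the gene's reads in the first 3 groups. In Grn+/-:hTDP+ mice it was listed at 0 in 5 of 6 libraries. The other library, replicate 2, held 4.02% and lay at 29.6 TPM of Wdr77, also below all Grn+/-:hTDP- libraries. The transcript was also listed at 0 in Grn+/+:hTDP+ replicate 6, at 28.1 TPM of Wdr77 against 31.9 to 37.3 TPM in the rest of that group. Over all groups, libraries with the transcript at 0 lay at 25.8 to 28.6 TPM of Wdr77. The 18 libraries above 0 lay at 29.6 to 37.3 TPM and held from 102 to 387 reads of the transcript. Its part in the TPM of the gene was not tested.

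This transcript ends inside the intron after exon 8, and shares that stretch with a transcript of 4286 bases annotated as subject to nonsense-mediated decay. The intron (chr3:105965874-105966356, 483 bases) is retained whole in the longer transcript, and the shorter one holds its first 219 bases. The boundary of exon 8 and the intron is shown because both transcripts hold it, with the first bases of the intron in capitals.
Wdr77 exon 8 and intron, chr3:105965844-105965903, plus strand: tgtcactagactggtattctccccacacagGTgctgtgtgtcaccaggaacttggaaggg
Reads in this stretch can be assigned to either transcript. The share of both together was 13.5% ± 1.91 in Grn+/+:hTDP-, 14.4% ± 2.39 in Grn+/+:hTDP+, 14.0% ± 1.70 in Grn+/-:hTDP- and 11.7% ± 2.57 in Grn+/-:hTDP+ mice (SD, n = 6 each), and the groups overlapped. A transcript that is listed at 0 in some libraries and well above 0 in others of the same group can be a failed estimate, and no test was read from it.

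**Figure D3:**
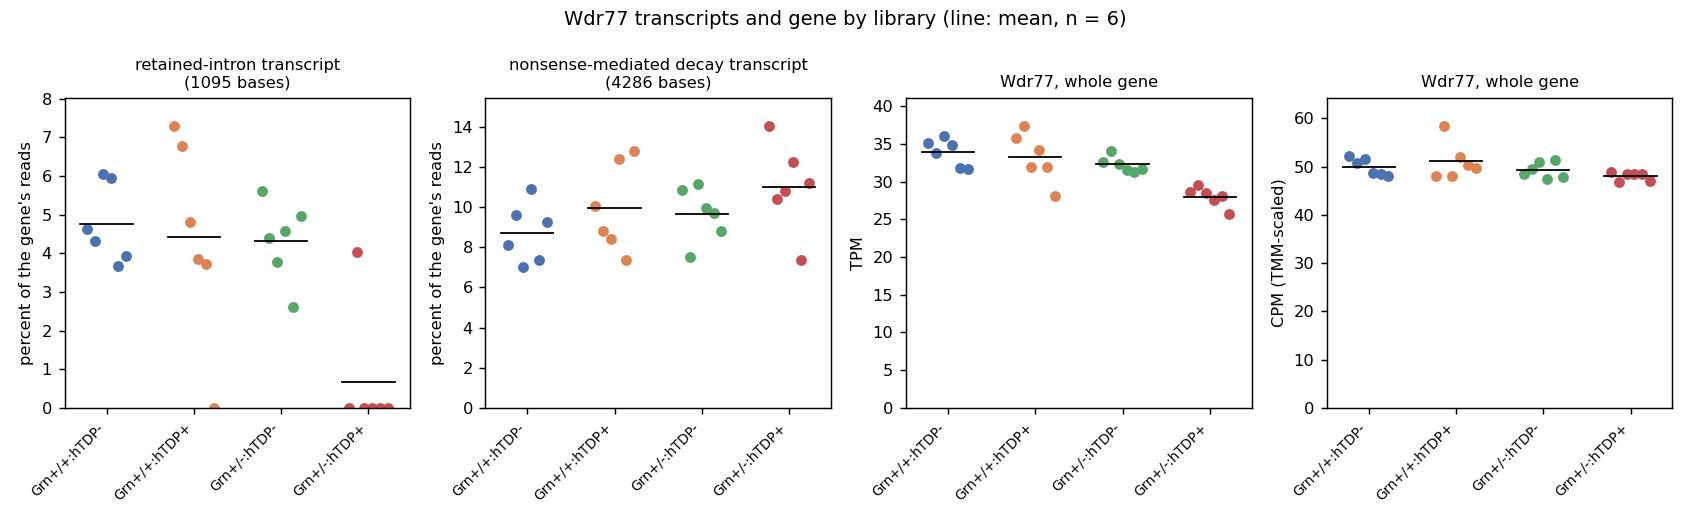
Share of the Wdr77 reads assigned to the retained-intron transcript and to the nonsense-mediated decay transcript (percent, left panels), and the level of the whole gene in TPM and in CPM (other panels), in each library of the 4 groups with the group mean as a line. The retained-intron transcript is at 0 in 5 of 6 Grn+/-:hTDP+ libraries. All 6 lie at 25.8 to 29.6 TPM, below all Grn+/-:hTDP- libraries, while their CPM of 46.8 to 48.9 overlaps the other groups.

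Smn1 (chr13:100124852-100137690), the gene of the SMN protein around which the complex forms, lay within a narrow range. Its lowest, median and highest libraries were 8.40, 9.44 and 9.89 CPM in Grn+/+:hTDP-, 8.13, 9.26 and 9.57 CPM in Grn+/+:hTDP+, 8.14, 8.80 and 9.91 CPM in Grn+/-:hTDP-, and 9.06, 9.40 and 10.0 CPM in Grn+/-:hTDP+ mice. All 4 groups overlapped. Carriers and noncarriers differed by 0.03 on the log2 scale (SE 0.0404).

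Gemin2 (chr12:59013393-59028470), whose protein grips the Sm proteins inside the complex, had the largest positive change of the 10 genes with the transgene, and it was not called. The libraries ran over 3.12, 3.44 and 3.79 CPM (lowest, median, highest) in Grn+/+:hTDP-, 3.22, 3.82 and 4.48 CPM in Grn+/+:hTDP+, 2.97, 3.52 and 4.04 CPM in Grn+/-:hTDP-, and 3.49, 3.70 and 3.87 CPM in Grn+/-:hTDP+ mice. The groups overlapped on both backgrounds. Its average log2 change was 0.11 (SE 0.0636, edgeR adjusted p = 0.675), the opposite sign to Clns1a, at 200 to 438 reads per library. Without the library that stands apart, which held 4.48 CPM, the change was 0.09 (SE 0.0601).

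Gemin5 (chr11:58120002-58168539), the subunit that recognises small nuclear RNA, measured 28.1 ± 0.929 and 27.2 ± 1.71 CPM in Grn+/+ mice that lacked or carried the transgene and 27.3 ± 1.31 and 26.8 ± 2.06 CPM in Grn+/- mice (average log2 change −0.04, SE 0.0350). Gemin4 (chr11:76210571-76217664), a partner of the helicase Ddx20 in the complex, measured 13.7 ± 1.40, 14.1 ± 0.930, 13.1 ± 0.919 and 13.5 ± 0.573 CPM in the same order of groups (average log2 change 0.05, SE 0.0460). In both genes the groups overlapped. Gemin4 shares 3353 exon bases with Glod4 on the same strand and 2875 with Fam57a on the opposite strand, so the split of reads between these genes is uncertain. The protocol describes libraries with and without strand, and overlaps on opposite strands (Wdr77 with Atp5f1 over 337 bases, Gemin7 with Zfp296 over 263 bases and Clns1a with Rsf1os2 over 121 bases) could share reads.

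Gemin6, Gemin7 and Gemin8 encode a group of subunits that bind one another at the edge of the complex. Gemin6 (chr17:80224441-80228497) measured 3.09 ± 0.295, 3.03 ± 0.492, 3.27 ± 0.384 and 3.38 ± 0.395 CPM in the groups in the order given above. Gemin7 (chr7:19564946-19577595) measured 17.9 ± 1.32, 17.7 ± 1.44, 17.7 ± 1.04 and 18.0 ± 1.09 CPM. The average log2 changes with the transgene were 0.01 (SE 0.0782) for Gemin6 and 0.00 (SE 0.0407) for Gemin7. Without the library that stands apart they were 0.03 (SE 0.0742) and −0.01 (SE 0.0391). The X-linked gene Gemin8 (chrX:166170454-166190512), which links the pair to SMN, measured 8.24 ± 0.659, 8.69 ± 1.70, 8.68 ± 0.528 and 8.47 ± 0.547 CPM, with an average log2 change of 0.02 (SE 0.0646). Without the library that stands apart, which held 11.96 CPM, Gemin8 in Grn+/+:hTDP+ mice was 8.03 ± 0.629 CPM (n = 5), and its average log2 change took the opposite sign, −0.04 (SE 0.0468). The groups of these 3 genes overlapped. Over the 10 genes the median log2 change with the transgene was 0.005, against 0.003 over all genes tested.

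The Grn genotype was not used to choose these genes, and edgeR called 0 of the 10 for it. For the average Grn effect (Grn+/- minus Grn+/+ over both hTDP genotypes) 0 of 10 were at an unadjusted p under 0.05, DESeq2 and limma voom also called 0, and 0.0219% of all genes were called. Clns1a had a log2 change of 0.01 (SE 0.0248, 95% interval −0.04 to 0.06, edgeR adjusted p = 0.980), so a Grn effect of the size of its transgene difference lies outside this interval. The largest values were 0.12 for Gemin6 (SE 0.0781), −0.06 for Gemin4 (SE 0.0460) and −0.05 for Wdr77 (SE 0.0286). The smallest edgeR adjusted p was 0.926. Without the library that stands apart Gemin6 was at 0.09 (SE 0.0741), Gemin4 at −0.06 (SE 0.0479), Wdr77 at −0.03 (SE 0.0215) and Clns1a at −0.00 (SE 0.0242), and Gemin8 moved from 0.02 (SE 0.0646) to 0.08 (SE 0.0468), which placed it second by size. The median of the 10 was −0.01, against 0.005 over all genes.

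With the hTDP genotypes taken apart, the same test called 0 of 10 genes in mice without the transgene (0.011% of all genes called) and 0 of 10 in mice with it (0.00548%). DESeq2 and limma voom called 0 as well. At an unadjusted edgeR p under 0.05 there were 622 of 18239 genes without the transgene and 614 with it. Of the 10 genes there were 0 without the transgene and 1 with it. That gene was Wdr77, at 49.9 ± 1.75 and 49.3 ± 1.66 CPM in Grn+/+ and Grn+/- mice without the transgene and 51.1 ± 3.85 and 48.0 ± 0.864 CPM with it. Its log2 Grn effect among transgenic mice was −0.09 (SE 0.0404, unadjusted p = 0.0382, edgeR adjusted p = 0.989). The comparison includes the library that stands apart, without which the Grn+/+:hTDP+ mean was 49.6 ± 1.61 CPM (n = 5) and the effect −0.04 (SE 0.0312, unadjusted p = 0.168, edgeR adjusted p = 1.0).

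**Figure D4:**
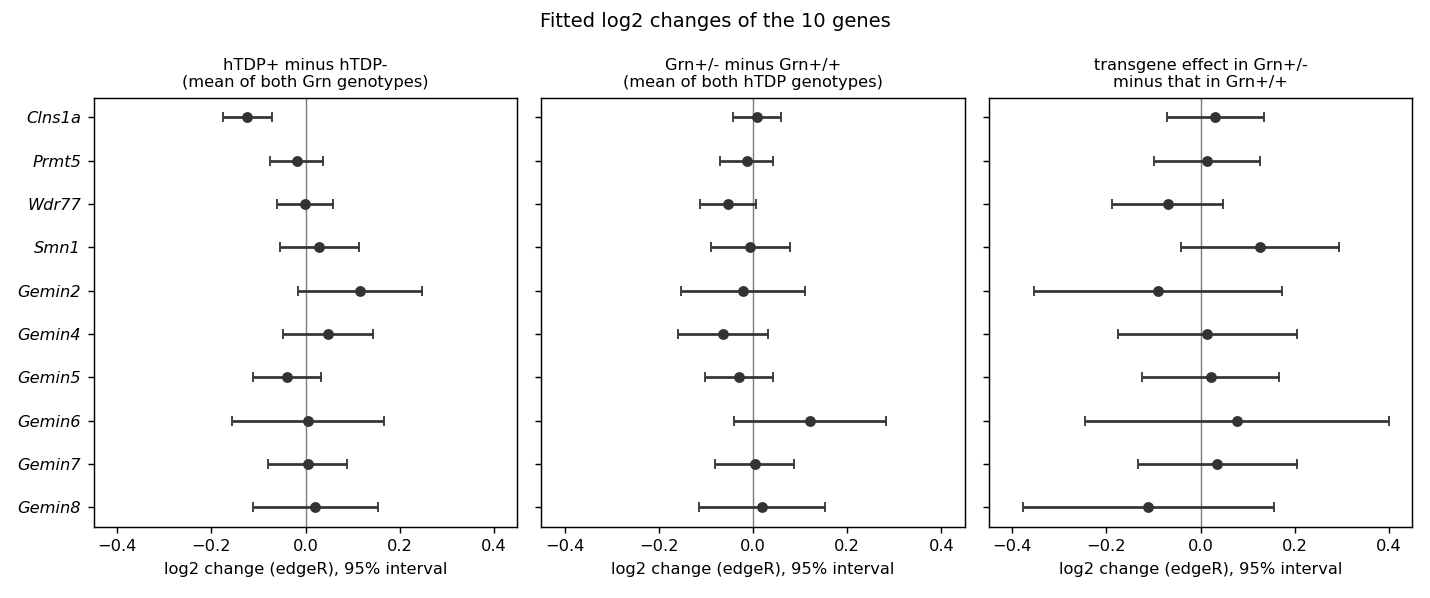
Fitted edgeR log2 changes with 95% intervals (horizontal axes) for the 10 genes: hTDP+ minus hTDP-, Grn+/- minus Grn+/+, and the interaction. Clns1a sits at −0.12 for the transgene, at 0.01 for Grn and at 0.03 for the interaction, and the intervals for Grn and for the interaction include 0 for all 10 genes.

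The interaction is the difference between the log2 change with the transgene on the Grn+/- and on the Grn+/+ background. It was called for 0 of the 10 genes and for 0 of 18239 genes by edgeR (0%). Of all genes 434 had an unadjusted p under 0.05, and none of the 10 did; DESeq2 called 3 genes and limma voom 0, none of the 10. For Clns1a it was 0.03 (SE 0.0497, 95% interval −0.07 to 0.13, edgeR adjusted p = 1.0). The upper bound is close in size to the whole transgene difference in Grn+/+ mice. The largest values were 0.13 for Smn1 (SE 0.0809), −0.11 for Gemin8 (SE 0.129) and −0.09 for Gemin2 (SE 0.127). Without the library that stands apart these were 0.14 (SE 0.0798), 0.00 (SE 0.0936) and −0.04 (SE 0.120). Intervals over the 10 genes reached from −0.38 (Gemin8) to 0.40 (Gemin6), and differences within a gene's interval are not excluded here.

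Between females and males edgeR called 0 of the 10 genes, with 0 of 10 at an unadjusted p under 0.05, 0 called by DESeq2 and by limma voom, and 0.0713% of all genes called. Log2 changes (female minus male) ranged from −0.08 for Gemin6 to 0.05 for the X-linked Gemin8 (SE 0.0646). Without the library that stands apart Gemin8 was at −0.01 (SE 0.0469), and the values ran from −0.07 for Gemin7 to 0.04 for Gemin5.

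The use of transcripts within a gene could be tested in 5 of the 10 genes, Prmt5, Wdr77, Gemin2, Gemin5 and Gemin7, which have more than 1 transcript with at least 5% of the reads. The retained-intron transcript of Wdr77 described above held less than 5% over all libraries, so the test of Wdr77 did not include it. None was called for the average Grn effect, where 0.0381% of 7876 genes were called, or for the interaction, where 0.0127% were (edgeR adjusted p = 1.0 for all 5). At an unadjusted p under 0.05 edgeR's usage test found 0 of the 5 in either comparison. The limma usage test had 3 there for the Grn effect, Gemin2, Gemin5 and Gemin7, and 1 for the interaction, Gemin2, and called none (smallest adjusted p = 0.371, Gemin5). In each comparison it called 2 of 7876 genes. The share of all genes at an unadjusted p under 0.05 was not counted for the usage tests, so nothing is read from these counts. The main coding transcript of Prmt5 held 93.5% ± 0.872 of its reads (SD, n = 24).

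Shares of single transcripts stood behind these tests. A coding transcript of Gemin5 of 4919 bases held 27.6% ± 4.32 of its reads in Grn+/+ and 22.8% ± 4.09 in Grn+/- mice (n = 12 each), with overlapping libraries. Gemin7 split its reads mainly between 2 coding transcripts, 1 of 1023 bases with 53.3% ± 6.03 in Grn+/+ and 49.2% ± 3.49 in Grn+/- mice, and 1 of 763 bases with 44.5% ± 6.01 and 48.8% ± 3.42. A retained-intron transcript of Gemin2 (1946 bases) held 6.15% ± 3.10 in Grn+/+:hTDP- and 10.2% ± 3.73 in Grn+/+:hTDP+ mice, against 5.57% ± 1.1 in Grn+/-:hTDP- and 4.85% ± 2.44 in Grn+/-:hTDP+ mice (n = 6 each). It rested on 5.82 to 68.2 reads per library, and the groups overlapped. The main coding transcript of Wdr77 held 84.5% ± 2.25 in Grn+/+ and 85.5% ± 2.32 in Grn+/- mice.

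Around these genes, 86 further genes of the snRNP pathway were listed in 8 groups, all of them tested. For the average transgene effect edgeR called 0 of the 86, with 14 at an unadjusted p under 0.05 against 1433 of 18239 over all genes, and DESeq2 and limma voom called 0. The Sm proteins are the substrates of the machinery. Of 8 Sm protein genes, 7 had a log2 change above 0 with the transgene (median 0.08), among them Snrpf at 0.10 (SE 0.0554) and Snrpe at 0.10 (SE 0.0386). Of 9 genes of the related Sm-like proteins, which form the rings of the U6 and U7 particles, 8 were above 0 (median 0.09), with Lsm2 at 0.16 (SE 0.0719) and Lsm3 at 0.14 (SE 0.0764). The median over all genes was 0.003, with 51.6% above 0. Without the library that stands apart both medians were 0.05, with 7 of 8 and 8 of 9 above 0, and with surrogate variables in the fit they were 0.03, with 6 of 8 and 7 of 9.

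The lists of other steps had medians nearer to 0. Proteins of the minor spliceosome, which removes a rare class of introns, had a median of 0.03 with 7 of 8 above 0, Rnpc3 at 0.17 (SE 0.0841) and Snrnp48 at 0.16 (SE 0.0896). Proteins of the U1, U2, U4 and U5 particles had a median of 0.02 with 17 of 26 above 0, Snrnp70 at 0.17 (SE 0.0872) and the U5 helicase gene Snrnp200 at −0.10 (SE 0.0310). Under limma on log2(TPM + 0.5) the minor spliceosome list had a median of 0.001 with 4 of 8 above 0, and the U1, U2, U4 and U5 list a median of −0.005 with 12 of 26. The latter list was also below 0 with surrogate variables (median −0.002) and in mice of 9.44 or 10.07 months (median −0.001), with 12 of 26 above 0 in each. The remaining SMN complex genes, Strap and Ddx20, were at 0.02 (SE 0.0266) and −0.01 (SE 0.0397). Adaptors of Prmt5 and other arginine methyltransferases had a median of 0.00 with 5 of 10 above 0, the neuronal methyltransferase gene Prmt8 at −0.11 (SE 0.0545) and the Prmt5 adaptor gene Riok1 at 0.10 (SE 0.0395). Genes for the export, cap and import of small nuclear RNA had a median of 0.00, with 5 of 9 above 0, Wrap53 at 0.09 (SE 0.0516) and Phax at −0.06 (SE 0.0367). Under limma on log2(TPM + 0.5) the last pair of lists had medians of −0.03 with 4 of 10 and −0.02 with 2 of 9 above 0.

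Integrator, which ends the transcripts of small nuclear RNA genes, had a median of −0.02 with 6 of 14 above 0, Ints12 at −0.08 (SE 0.0455) and Ints9 at −0.27 (SE 0.443). Ints9 lay at 0.210 to 0.691 CPM in 4 libraries, replicates 3, 4 and 6 of Grn+/+:hTDP+ and replicate 5 of Grn+/-:hTDP-, and at 9.73 to 12.05 CPM in the other 20.

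**Figure D5:**
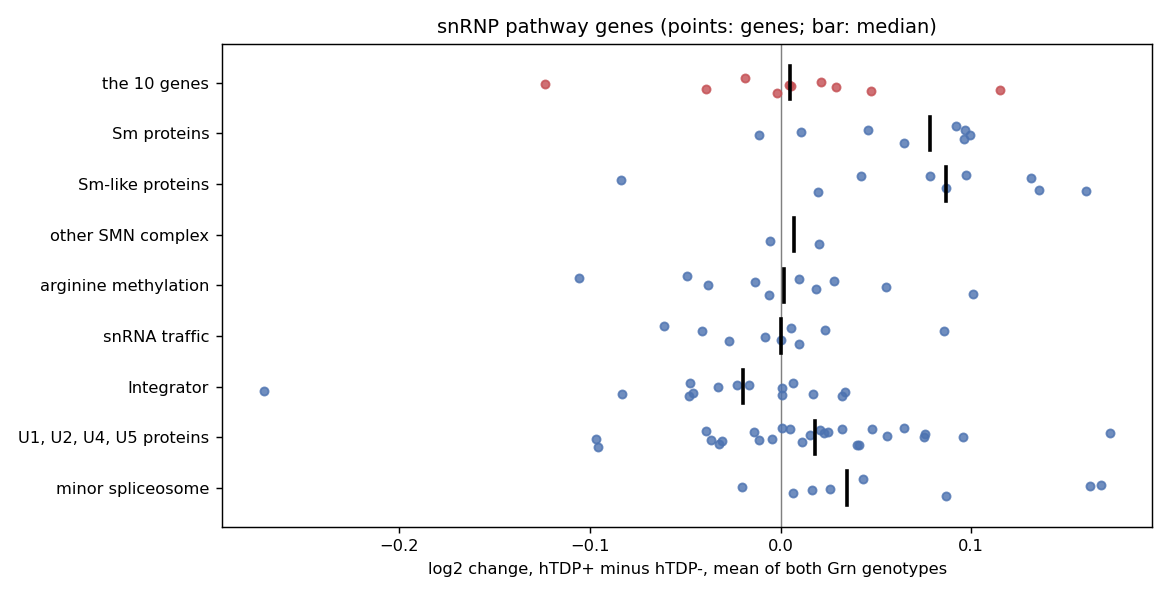
Average log2 change with the transgene (horizontal axis) of the 10 genes and of the 86 pathway genes in 8 lists, each point a gene and each bar a median. The medians of the Sm (0.08) and Sm-like (0.09) lists lie above that of the 10 genes (0.005), and Clns1a is the lowest of the 10 at −0.12.

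For the average Grn effect and for the interaction edgeR called 0 of the 86 pathway genes, with 4 and 2 at an unadjusted p under 0.05 against 899 and 434 of 18239 over all genes, and DESeq2 and limma voom called 0. List medians for the Grn effect ran from −0.02 (the remaining SMN complex genes) to 0.02 (Sm-like and Sm genes), and the pair of largest change in each list is named here. Among the genes of the Sm and Sm-like rings these were Snrpf at 0.11 (SE 0.0554), Snrpb at 0.05 (SE 0.0238), Lsm5 at 0.08 (SE 0.115) and Lsm8 at −0.07 (SE 0.0390). Among the particle proteins they were Snrnp70 at 0.08 (SE 0.0873), Usp39 at −0.08 (SE 0.0244), Rnpc3 at 0.06 (SE 0.0842) and Snrnp48 at 0.05 (SE 0.0897). For methylation and traffic they were Coprs at 0.07 (SE 0.0484), Prmt6 at 0.06 (SE 0.0382), Tgs1 at −0.07 (SE 0.0360) and Xpo1 at −0.05 (SE 0.0497). Ints9 was at 0.25 (SE 0.442), Ints12 at −0.10 (SE 0.0455), Ddx20 at −0.03 (SE 0.0397) and Strap at −0.01 (SE 0.0266). All lay within a log2 change of 0.11 except Ints9. For the interaction the Sm-like list had the lowest median, −0.07, with 3 of 9 above 0. Snrpg at −0.30 (SE 0.113), Lsm10 at −0.29 (SE 0.183) and Wrap53 at −0.26 (SE 0.103) lay farthest below 0. The others of largest change were Snrpf at 0.06 (SE 0.111), Lsm3 at −0.16 (SE 0.153), Snrpb2 at 0.14 (SE 0.0689), Txnl4a at −0.11 (SE 0.0702), Snrnp35 at −0.20 (SE 0.113) and Snrnp48 at 0.10 (SE 0.179). For methylation, traffic and Integrator they were Riok1 at 0.09 (SE 0.0790), Coprs at −0.09 (SE 0.0968), Xpo1 at 0.10 (SE 0.0995), Ints9 at 1.07 (SE 0.883) and Ints14 at −0.12 (SE 0.101), and in the SMN complex Ddx20 at 0.07 (SE 0.0793) and Strap at −0.02 (SE 0.0532).

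The variation of Clns1a from library to library, within group and sex, was set against that of its partners. Over the 24 libraries, with group and sex means taken out of log2 CPM, its Pearson correlation was 0.05 with Prmt5, −0.39 with Wdr77, 0.15 with Smn1 and −0.53 with Gemin8. Without the library that stands apart these became −0.12, −0.16, 0.27 and −0.39 (23 libraries). With Gemin2, Gemin4, Gemin5, Gemin6 and Gemin7 the correlation was −0.22, −0.02, 0.01, −0.02 and −0.24. Without that library these values were −0.07, −0.003, −0.15, −0.22 and −0.10. The 5 named genes of at least 10 CPM most like Clns1a, of 9537 eligible, were Zfp646 (r = 0.71), Erp44 (0.65), Angel2 (0.65), Ankrd50 (0.64) and Spire1 (0.64). Without that library their values were 0.65, 0.57, 0.58, 0.55 and 0.57. These are the highest of many correlations over libraries that share tissue and depth, and are given as a description.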

How the data were processed

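The frontal cortex of 24 mice was profiled, 1 library per mouse, and groups were taken from the labels' genotypes. The deposited files give, per transcript, estimated counts (NumReads) and TPM (length-corrected abundance), which the authors made with Salmon, per the file headers and the submitters' processing notes. Those notes also name STAR, SAMtools and DESeq2, while versions and the genome build were not given in these sources. Of the transcripts in each file, 138032 (92.4%) matched GENCODE release M21 (GRCm38) by identifier without version, in 52352 genes, and the unmatched ones held 1.17 to 1.66% of the reads. The labels' protocols describe steps with and without strand.

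Estimated counts were summed per gene and rounded. Genes were tested by quasi-likelihood in edgeR (version 4.0.16, under R 4.3.3) with TMM scaling, its filter on low counts, terms for group and sex, all 24 libraries and Benjamini-Hochberg adjustment over the 18239 genes kept. Levels are CPM (counts scaled to TMM-scaled library sizes), with a prior count of 1 on the log2 scale. The use of transcripts with at least 5% of a gene's reads was tested with edgeR's diffSpliceDGE (Simes). Alternatives used DESeq2 1.42.0, limma 3.58.1 (voom, or log2(TPM + 0.5)) and sva 3.50.0. Sequences and coordinates come from GENCODE M21.

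Named genes are the 10 genes in every comparison, the called genes of each pathway list or, with none called, the 2 of largest change, and the 5 genes most like Clns1a. The 10 genes, the lists and the tests were chosen with earlier results of these data known.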

Additional observations from a re-analysis of the deposited data

Results flagged for a closer look

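Of 40 sets of 6 libraries (10 genes in 4 groups), 4 had 1 library far from the other 5 by Dixon's criterion, where chance gives about 1 in 20. In Grn+/+:hTDP+ mice, replicate 2 held 58.4 CPM of Wdr77, against 48.1 to 51.9 CPM in the others. The same library held 11.96 CPM of Gemin8, against 7.03 to 8.60 CPM, and it is the library with fewer genes above 0 than all others. In Grn+/+:hTDP- mice, replicate 3 held 9.50 CPM of Gemin8, against 7.68 to 8.31 CPM. In Grn+/-:hTDP- mice, replicate 3 held 19.7 CPM of Gemin7, against 17.0 to 18.0 CPM.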

How the results depend on the processing

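The number of the 10 genes called for the average transgene effect, 1 as reported, fell to 0 with no filter on low counts (Clns1a edgeR adjusted p = 0.148), with age as a linear term (0.0743), with only mice of 9.44 or 10.07 months (1.0; this leaves a lone Grn+/-:hTDP- mouse, assumed to vary like the other groups), with length-scaled TPM counts (0.155) and with 5 surrogate variables (0.162). Leaving out each library in turn gave 0 to 1. The cause was not tested. Clns1a remained called with RLE size factors, without the sex term, and with limma voom, limma on log2(TPM + 0.5) and DESeq2. Over all genes, 20 were called as reported, 61 by DESeq2, 39 with surrogate variables and 3 in the mice of 9.44 or 10.07 months. In the 5 comparisons other than those of the transgene, 0 of the 10 genes were called under any of the 34 alternatives. Of 2710 recomputed changes of the 10 genes, 35 moved by more than the spread (SD) of single libraries within groups, and 186 changed sign without a call. Of the 34 alternatives, 24 left out 1 library, which can hardly move an estimate by that spread. The count of 35 is therefore no measure of how stable the changes are. No paired analysis was possible because the labels give no replicate numbers, so that numbers here only name libraries. Gemin6 and Gemin2 had the fewest reads, and Gemin6, Gemin8 and Gemin2 the widest errors for the average transgene effect (SE 0.0782, 0.0646 and 0.0636).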
